A study of Mus musculus with 6 samples.

Results

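The genes described here are 46 genes of G2 phase and mitosis, listed by name and looked up as GENCODE M21 symbols in a table of raw read counts for 49315 mouse genes. All 46 were found, each as a single row, and all 46 passed the low-count filter that left 13704 genes for testing. RNA was sequenced from immortalized mouse keratinocytes (MK cells), which are skin epithelial cells grown as a line. Control cells were MK-546 (MK-/-), which lack the α3 integrin subunit, and the 3A group was MK-546-ha3A (MK-/-:ha3), the same α3-deficient cells given back human α3. Each group had 3 libraries, Control 1 to 3 and 3A 1 to 3. Both lines received no treatment and grew on collagen-coated 10 cm dishes at 33 °C and 8% CO2, to about 50 to 80% confluence. Each group is a single line, so α3 and the descent of the line cannot be told apart. Nothing in the labels says that replicates were separate cultures, so the p-values rest on a spread among these samples alone, and that spread may be technical. The way the cells were immortalized and their cell cycle stage are given by no source used here.

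In a dividing cell, cyclin B bound to the kinase Cdk1 drives entry into mitosis. Condensins then compact the chromosomes, kinetochores attach them to the spindle, and a checkpoint holds the anaphase-promoting complex until every chromosome is attached. Transcription of these genes peaks in G2 and mitosis. Many of their promoters carry the cell cycle genes homology region (CHR), bound by the MuvB complex with B-Myb or pocket proteins, and CCAAT boxes, bound by NF-Y. In a bulk sample, a larger share of cells in mitosis and more RNA per mitotic cell cannot be told apart.

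Total counts ranged from 25634204 to 36245240 per library. The keratinocyte markers fixed for the check summed to between 9650 and 11100 CPM (counts scaled to a common library size with TMM factors) in Control and between 6770 and 8700 CPM in 3A, and all 8 were expressed. Of these 8 markers 2, Trp63 and Perp, fell in 3A (log2 fold changes -0.61 and -0.78, edgeR adjusted p = 0.0491 and adjusted p = 0.0247) and 0 rose. Of all tested genes 7.39% fell and 7.52% rose by edgeR. Krt5, Krt14, Col17a1 and Dst had log2 fold changes from -0.77 to -0.32, and Itga6 and Itgb4 of 0.20 and 0.28, none called by edgeR. The part of these marker differences in the results below was not tested. The summed markers of fibroblasts reached at most 3.40 CPM, those of melanocytes 1.71 CPM and those of endothelial cells 0.945 CPM. The 4 leukocyte markers summed to between 9.83 and 20.2 CPM, nearly all of it from Cd68, while Ptprc and Cd3e were at or near 0. Itga3 had 31.9, 41.7 and 45.1 CPM in Control 1, 2 and 3, against 80.4, 70.2 and 57.5 CPM in 3A 1, 2 and 3. Reads of the human transgene may fall on the mouse gene, so these values check neither the deletion nor the transgene. Control 1 stood apart from the other Control libraries: its log2 CPM correlated across genes at 0.957 and 0.953 with Control 2 and 3, which correlated at 0.988 with each other (genes are not independent replicates). Mitochondrial mRNA made up 1.16% of the counts in Control 1, 4.16% in Control 2 and 4.69% in Control 3, against 1.23% to 1.58% in 3A. The part of this share in the results was not tested beyond the fits with it as a covariate that are given below. Only Control 2 and 3 had a high share, so those fits set 3A largely against Control 1 and are no independent check. Their group estimates and p-values thus lean on Control 1.

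The mitosis genes were expressed in both lines, with a somewhat higher summed level in 3A. Their summed level was 4023, 4063 and 4446 CPM in Control 1, 2 and 3, against 4735, 4722 and 4621 CPM in 3A 1, 2 and 3. Every 3A library was thus higher than every Control library, and the gap between the nearest libraries of the groups was smaller than the range within Control. In edgeR's quasi-likelihood fit of all tested genes, with p adjusted by Benjamini-Hochberg, 1 of the 46 rose in 3A and 0 fell at an adjusted p under 0.05, while 7.52% of all tested genes rose and 7.39% fell. At an unadjusted p under 0.05, edgeR had 13 of the 46 higher (28.3%) and 2 lower (4.35%), against 15.8% and 18.1% of all tested genes. With offsets for GC content and length it had 6 higher (13.0%) and 3 lower (6.52%), against 17.1% and 20.7%. With the replicate number as a block it had 4 higher (8.7%) and 0 lower, against 9.85% and 9.51%. DESeq2 called 10 higher and 1 lower, against 12.2% and 13.8% of all tested genes. The 46 log2 fold changes (3A over Control) ran from -1.14 to 0.96 with a median of 0.20, beside a median of -0.02 over all tested genes, and 33 of the 46 were positive.

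**Figure D1:**
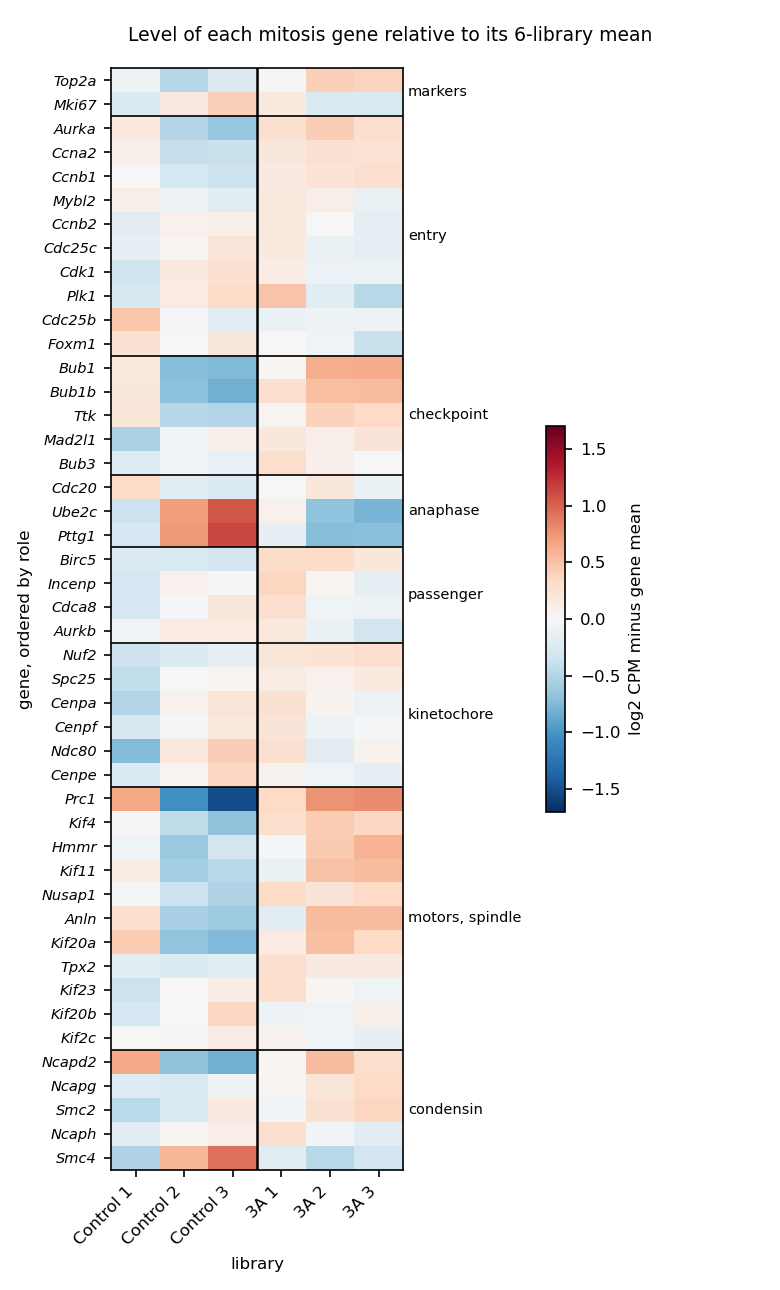
Level of each of the 46 genes in each library, as log2 CPM minus the gene's mean over the 6 libraries (red above, blue below), with genes in rows ordered by role and libraries in columns. In a number of rows, such as Prc1, Bub1b and Ncapd2, Control 1 has the color of the 3A libraries, while Control 2 and Control 3 stand apart from both.

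The gene that rose was Birc5, which encodes survivin, a subunit of the chromosomal passenger complex that corrects faulty attachments and is needed for cell division. Birc5 lies on the plus strand of chromosome 11 at 117849251 to 117855743 (GRCm38, the assembly of mm10). It had 60.3, 59.4 and 56.6 CPM in Control 1, 2 and 3, against 88.4, 88.1 and 81.4 CPM in 3A 1, 2 and 3. The groups did not overlap, and Control 1 lay with the other Control libraries. The means were 58.7 ± 1.95 CPM in Control against 85.9 ± 3.96 CPM in 3A (SD, n = 3), a log2 fold change of 0.55 (SE 0.13, 95% confidence interval 0.24 to 0.85, edgeR adjusted p = 0.0326). The adjusted p was 0.0073 without Control 1. It was 0.143, 0.122, 0.0745, 0.167 and 0.101 without Control 2, Control 3, 3A 1, 3A 2 and 3A 3, so the call needed each of these libraries, while the log2 fold change stayed between 0.52 and 0.60. Birc5 was also called with a covariate for mitochondrial mRNA (log2 fold change 0.51, edgeR adjusted p = 0.0363), a fit that leans on Control 1 as described above. Tested against a change of 1.5-fold, Birc5 had an adjusted p of 0.856 by edgeR's glmTreat. Of the other passenger subunits none passed. Aurkb, the kinase of the complex, had a log2 fold change of -0.14, its scaffold Incenp 0.17 and borealin (Cdca8) 0.08.

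**Figure D2:**
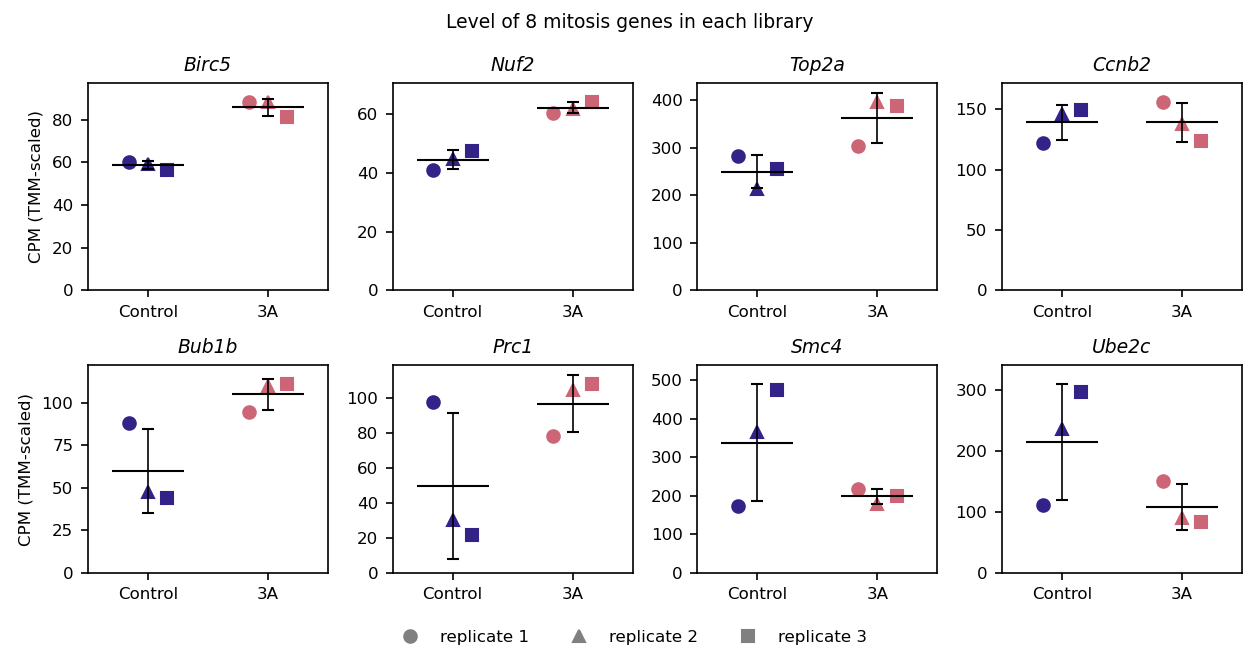
Level of 8 of the genes in each library in CPM on axes that start at 0, with symbols for the replicate number, a line at the group mean and bars of 1 SD (n = 3 per group). Birc5 and Nuf2 separate the groups, Ccnb2 does not, and for Prc1, Smc4 and Ube2c the Control 1 value lies among or near those of 3A.

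Much of the spread among the 46 genes lay inside the Control group. On the log2 scale Control 1 was nearer to the mean of 3A than to that of Control 2 and 3 for 33 of the 46 genes (71.7%), as it was for 61.0% of all tested genes. Without Control 1, edgeR called 18 of the 46 higher (39.1%) and 3 lower (6.52%), while 26.2% of all tested genes were called higher and 25.8% lower. When any other library was left out instead, 0 of the 46 were called in either direction by edgeR. Of all tested genes, 2.46% to 4.54% were then called higher and 2.26% to 4.64% lower. At an unadjusted p under 0.05, 4 to 12 of the 46 were higher (8.7% to 26.1%) and at most 2 lower (4.35%). Of all tested genes, 10.2% to 15.7% were then higher and 10.5% to 17.3% lower at that threshold. All values of 3A exceeded all values of Control for 15 of the 46 genes (32.6%) and were under them for 0, whereas 18.6% and 17.6% of all tested genes did so. The biological coefficient of variation, the relative spread between replicates beyond counting error, had a median of 0.196 over the 46 genes. Its median was 0.200 over the 6731 tested genes in the same range of mean level (21.4 to 306 CPM), and among those 10.7% were called in either direction.

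**Figure D3:**
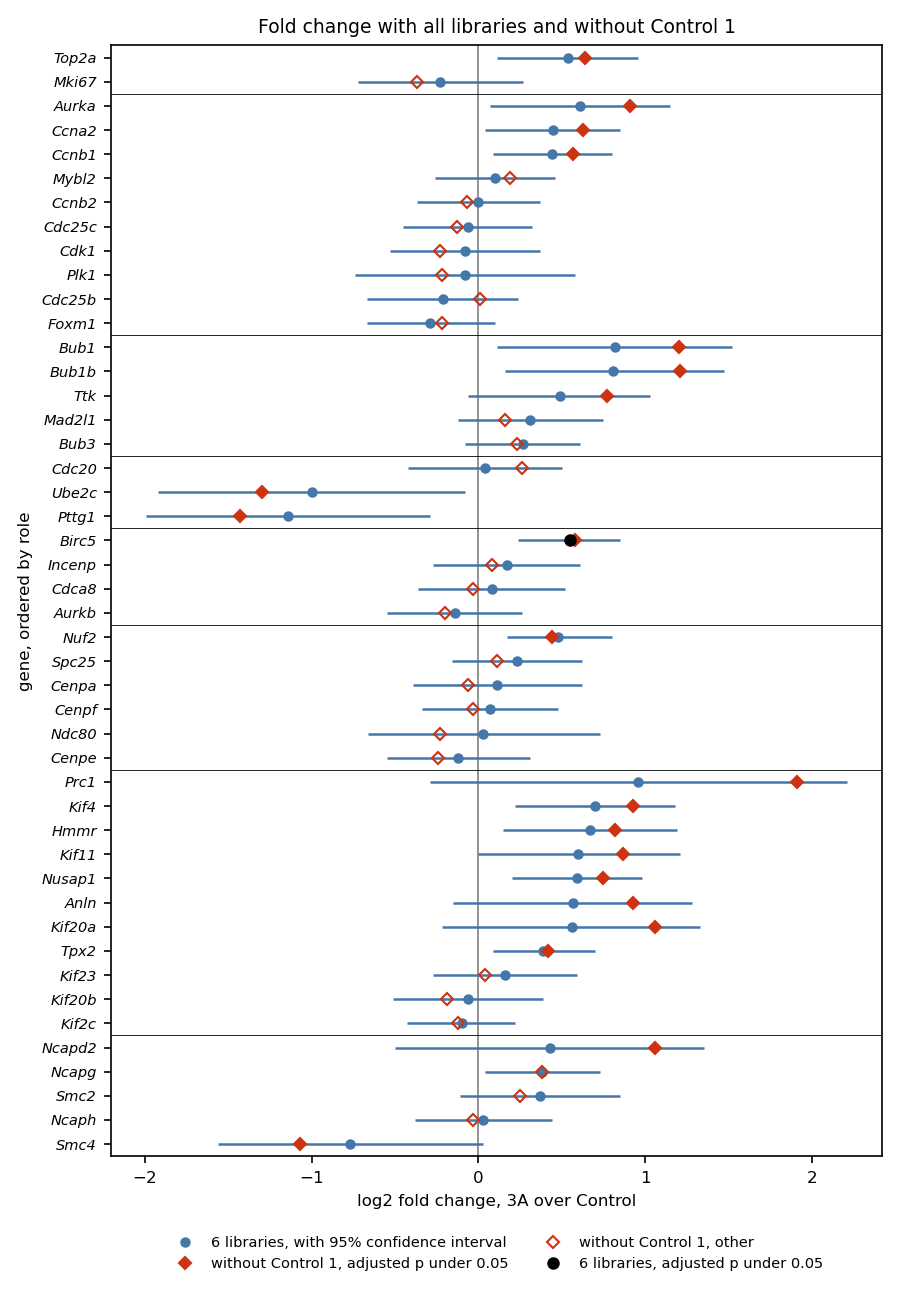
Log2 fold change of 3A over Control for each of the 46 genes, ordered by role. Circles with lines give the estimate and its 95% confidence interval from 6 libraries, and diamonds the estimate without Control 1, filled where the edgeR adjusted p was under 0.05. With 6 libraries only Birc5 passed, and without Control 1 18 genes passed to the right and 3 (Pttg1, Ube2c and Smc4) to the left.

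No regulator of mitotic entry passed edgeR's test by group with 6 libraries, and the cyclin genes differed in how far their libraries overlapped. Ccnb1, encoding cyclin B1, had 155, 127 and 121 CPM in Control 1, 2 and 3, against 174, 183 and 189 CPM in 3A 1, 2 and 3. The groups did not overlap, but the log2 fold change of 0.44 (SE 0.15) did not pass edgeR with 6 libraries (adjusted p = 0.0919). It passed without Control 1 (0.57, edgeR adjusted p = 0.0072) and by DESeq2 (adjusted p = 0.0286), and was 0.25 with a covariate for mitochondrial mRNA (edgeR adjusted p = 0.206). Ccnb2, encoding cyclin B2, had 122, 146 and 149 CPM in Control against 156, 138 and 124 CPM in 3A. Its groups overlapped throughout, with a log2 fold change of 0.00 and a 95% confidence interval from -0.37 to 0.37. Cdk1 itself had 138 ± 29.3 CPM in Control against 131 ± 11.9 CPM in 3A (SD, n = 3). Ccna2, encoding cyclin A2, which acts in S phase and G2, was without overlap between groups (103 ± 20.1 and 140 ± 3.34 CPM), as was Aurka, the kinase of the spindle poles (68.8 ± 22.0 and 105 ± 6.43 CPM). Both passed edgeR without Control 1 (log2 fold changes 0.63 and 0.91) and not with it (adjusted p = 0.118 and adjusted p = 0.114). With the mitochondrial covariate they were 0.19 and 0.21. Plk1, a kinase that acts from entry to exit, ran from 75.0 to 145 CPM within 3A, wider than its range in Control. The phosphatase genes Cdc25b and Cdc25c and the transcription factor genes Foxm1 and Mybl2, whose products switch on this set, had log2 fold changes of -0.21, -0.06, -0.29 and 0.10, none of which passed. With a covariate for mitochondrial mRNA, Cdc25b was called lower (log2 fold change -0.53, edgeR adjusted p = 0.0233). That fit called 6 of the 46 genes higher (Birc5, Mad2l1, Cenpa, Ndc80, Nuf2 and Spc25) and Cdc25b lower, against 9.13% and 9.23% of all tested genes.

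Of the usual markers of dividing cells, neither passed edgeR with 6 libraries, while DESeq2 called Top2a higher (adjusted p = 0.0335), and whether they differ from each other was not tested. Mki67, encoding the Ki-67 antigen, had 81.2, 106 and 126 CPM in Control 1, 2 and 3, against 107, 80.7 and 79.8 CPM in 3A 1, 2 and 3. Its groups overlapped (log2 fold change -0.23, 95% confidence interval -0.72 to 0.27). Top2a, the topoisomerase that untangles sister chromatids, had 282, 213 and 254 CPM in Control against 303, 396 and 387 CPM in 3A. Its groups did not overlap, and the log2 fold change of 0.54 (SE 0.18) passed without Control 1 (edgeR adjusted p = 0.0134) but not with 6 libraries (edgeR adjusted p = 0.0864).

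All 5 genes of the spindle checkpoint had a positive log2 fold change, from 0.27 to 0.82, and none passed edgeR's test with 6 libraries, while DESeq2 called Bub1 and Bub1b higher. Bub1b, encoding BubR1, a part of the inhibitor of the anaphase-promoting complex, had 88.2, 47.7 and 43.9 CPM in Control 1, 2 and 3, against 94.6, 110 and 111 CPM in 3A 1, 2 and 3. Control 1 was 1.93 times the mean of the other Control libraries and lay just under 3A. This gave a log2 fold change of 0.81, with an SE of 0.28 (edgeR adjusted p = 0.0924), and of 1.21 without Control 1 (edgeR adjusted p = 0.000739). With the mitochondrial covariate it was 0.31 (edgeR adjusted p = 0.153), while Bub1 had 0.31 (edgeR adjusted p = 0.339) and Ttk 0.10 (edgeR adjusted p = 0.705). Bub1, the kinase that recruits the checkpoint proteins, went the same way, with 86.0, 46.2 and 45.3 CPM in Control against 78.2, 117 and 118 CPM in 3A. There Control 1 lay inside the range of 3A. Ttk, the kinase that starts the signal, had 23.9, 14.9 and 14.8 CPM in Control against 21.4, 27.3 and 26.4 CPM in 3A, and it likewise passed only without Control 1 (log2 fold change 0.77, edgeR adjusted p = 0.00596). Mad2l1 and Bub3, whose products are also parts of the inhibitor, did not overlap between the groups but did not pass edgeR by group with or without Control 1. Mad2l1 was called higher with the mitochondrial covariate (log2 fold change 0.67). Their Control 1 values (83.1 and 126 CPM) were the lowest of the 6 libraries.

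By log2 fold change with 6 libraries, the lowest values of the 46 were those of Pttg1 and Ube2c, which act at anaphase, and neither passed edgeR. Ube2c encodes the ubiquitin-conjugating enzyme of the anaphase-promoting complex. It had 112, 236 and 298 CPM in Control 1, 2 and 3, against 151, 89.6 and 82.8 CPM in 3A 1, 2 and 3. The groups overlapped because Control 1 lay inside the range of 3A, and Control 2 and 3 averaged 2.39 times Control 1. This gave a log2 fold change of -1.0, with an SE of 0.39 (edgeR adjusted p = 0.122), and of -1.30 without Control 1 (edgeR adjusted p = 0.00485). With the mitochondrial covariate it was -0.10 (edgeR adjusted p = 0.822). Pttg1, encoding securin, the inhibitor of separase, had 20.8, 42.4 and 55.7 CPM in Control against 23.1, 15.4 and 15.5 CPM in 3A. The estimate of -1.14 (SE 0.36, edgeR adjusted p = 0.0769) became -1.43 without Control 1 (edgeR adjusted p = 0.00177) and -0.26 with the mitochondrial covariate (edgeR adjusted p = 0.412). Pttg1 was also called lower by DESeq2 (adjusted p = 0.0183). Cdc20, which activates the anaphase-promoting complex, had 87.3 ± 20.2 CPM in Control against 89.7 ± 9.37 CPM in 3A (SD, n = 3; log2 fold change 0.04).

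No gene of the kinetochore passed edgeR's test by group with 6 libraries, and Nuf2 came nearest. Nuf2, a subunit of the NDC80 complex that binds microtubules, had 41.0, 44.8 and 47.4 CPM in Control 1, 2 and 3, against 60.3, 61.8 and 64.1 CPM in 3A 1, 2 and 3. The groups did not overlap and Control 1 was the lowest library, yet the log2 fold change of 0.48 (SE 0.14) missed the threshold (edgeR adjusted p = 0.0540). It passed without Control 1 (edgeR adjusted p = 0.0209), by DESeq2 (adjusted p = 0.00576) and with the mitochondrial covariate (edgeR adjusted p = 0.0231). Its partners Ndc80 and Spc25 had log2 fold changes of 0.03 and 0.23. The centromeric histone gene Cenpa, the motor gene Cenpe and the large coiled-coil gene Cenpf had log2 fold changes of 0.11, -0.12 and 0.07. None of these 5 passed edgeR by group with or without Control 1, and Ndc80, Spc25 and Cenpa passed with the mitochondrial covariate (log2 fold changes 0.74, 0.51 and 0.54). For Ndc80 the estimate was -0.23 without Control 1. Ndc80 was low in Control 1 alone, at 31.1 CPM against 45.6 CPM or more elsewhere.

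Motor and spindle genes had the highest median log2 fold change of the roles with 6 libraries. Of the 11, 9 had a positive log2 fold change (median 0.57), 0 passed with 6 libraries (edgeR, with 4 at an unadjusted p under 0.05, the same 4 that DESeq2 called: Kif4, Tpx2, Hmmr and Nusap1) and 8 were called higher without Control 1. Prc1, which bundles the microtubules of the central spindle, had 97.8, 30.1 and 21.8 CPM in Control 1, 2 and 3, against 78.1, 105 and 108 CPM in 3A 1, 2 and 3. Control 1 was 3.77 times the mean of Control 2 and 3, the widest such gap upward among the 46 genes, and lay inside the range of 3A. The log2 fold change of 0.96 had an SE of 0.53 (edgeR adjusted p = 0.240), and it was 1.91 without Control 1 (edgeR adjusted p = 0.0006). With the mitochondrial covariate it was 0.08 (edgeR adjusted p = 0.769). Kif20a, a motor of the same central spindle, and Anln, the anillin of the cleavage furrow, likewise had Control 1 inside the range of 3A and Control 2 and 3 under every 3A library. Their log2 fold changes were 0.56 and 0.57, and -0.03 and 0.07 with the mitochondrial covariate. Kif20a had 80.6, 37.6 and 35.5 CPM in Control against 65.6, 85.1 and 75.5 CPM in 3A. Nusap1, a microtubule-stabilizing protein gene, had the smallest p of this role, with 60.5, 47.9 and 43.4 CPM in Control against 78.5, 72.0 and 78.4 CPM in 3A. It had no overlap (log2 fold change 0.59, SE 0.17, edgeR adjusted p = 0.0559). Kif4, a chromosome-bound motor gene on the X chromosome, had a log2 fold change of 0.70 and Tpx2, the activator of Aurora A, one of 0.39, both without overlap and both short of the threshold (edgeR adjusted p = 0.0597 and adjusted p = 0.0843). The motor genes Kif23, Kif20b and Kif2c had log2 fold changes between -0.10 and 0.16.

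The condensin genes had means that differed in both directions, and none passed edgeR with 6 libraries. Smc4, an ATPase subunit shared by both condensins, had 174, 366 and 474 CPM in Control 1, 2 and 3, against 219, 179 and 199 CPM in 3A 1, 2 and 3. Control 1 was the lowest of the 6 libraries, and the other Control libraries averaged 2.41 times its value. This gave a log2 fold change of -0.77, with an SE of 0.34 (edgeR adjusted p = 0.160), and of -1.07 without Control 1 (edgeR adjusted p = 0.00163). With the mitochondrial covariate the direction turned, to 0.13 (edgeR adjusted p = 0.564). Its partner ATPase gene Smc2 had a log2 fold change of 0.37 with overlap between the groups. Ncapd2, a HEAT-repeat subunit of condensin I, had the opposite order of libraries to Smc4, with 109, 43.7 and 39.7 CPM in Control against 71.7, 101 and 85.9 CPM in 3A. Ncapg, the other HEAT-repeat subunit of condensin I, had 58.9, 57.0 and 64.2 CPM in Control 1, 2 and 3, against 70.0, 78.8 and 86.3 CPM in 3A 1, 2 and 3. The means were 60.0 ± 3.75 CPM in Control against 78.4 ± 8.18 CPM in 3A (SD, n = 3; log2 fold change 0.38, edgeR adjusted p = 0.114), with no overlap. Ncaph, the kleisin subunit, differed by 0.03 on the log2 scale.

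Per kilobase of merged exons the 46 genes spanned a range from 3.63 (Ttk) to 90.9 (Ccnb2) in the Control means, in CPM per kilobase. In the Control means Ccnb2, Ube2c (82.8) and Smc4 (64.9) stood highest. In the 3A means Ccnb2 (91.0) stood highest, followed by Cdc20 (48.0) and Plk1 (47.2), with Ube2c at 41.4 and Smc4 at 38.2. For Ube2c and Smc4 this drop in rank rests on Control 2 and 3, as above. Plk1 and Cdc20 differed by less than the spread between their replicates, while Ccnb2 in 3A stood well above the rest.

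The promoters of the set often carried the elements named above, and genes with the same elements differed in the order of their libraries. A promoter window of 300 bases (250 before to 50 after the start, RefSeq, GRCm38.p6) was held for 38 of the 46 genes. Windows were searched on both strands for the CHR as TTTGAA or TTCGAA and for the CCAAT box as CCAAT, and matches could overlap. A CHR match was found in 29 of the 38 genes (76.3%), compared with 16.3% of the 9901 tested genes and 21.7% of all 27025 genes with a window. A CCAAT match was found in 27 (71.1%), compared with 43.2% of tested genes, and both in 25 (65.8%), compared with 8.11%. Counting a site in overlapping windows of a gene once, 30 of the 39 CHR matches began within 100 bases before the start or after it. That stretch is a large part of the window, and positions in other genes were not counted, so this is no measure of clustering. Among genes called higher without Control 1, 11 of the 15 with a window held a CHR match, and among those not called 17 of 21 did. A match is a description of these letters and no evidence of binding.

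Shown here are the windows of Birc5, the called gene, of Prc1, the gene with the smallest p without Control 1, and of Ube2c and Ccnb2, chosen after their values were seen because they hold the same elements as Prc1 but had log2 fold changes of -1.0 and 0.00. Capitals mark CHR and CCAAT matches on either strand, and each is written 5′ to 3′ on the strand of the gene. Birc5 (chr11:117848987-117849286, plus strand) had no match in its window. Prc1 (chr7:80294201-80294500, plus strand, the first of its listed starts) had a CCAAT match 37 bases and a CHR match 5 bases before the start. Ube2c (chr2:164769679-164769978, plus strand) had 6 CCAAT matches, of which a pair on opposite strands overlaps, and a CHR match on the reverse strand 29 bases before the start. Ccnb2 (chr9:70421505-70421804, minus strand) had CCAAT matches 87, 54 and 21 bases before the start and CHR matches 167 bases before and 5 bases after it.
Birc5: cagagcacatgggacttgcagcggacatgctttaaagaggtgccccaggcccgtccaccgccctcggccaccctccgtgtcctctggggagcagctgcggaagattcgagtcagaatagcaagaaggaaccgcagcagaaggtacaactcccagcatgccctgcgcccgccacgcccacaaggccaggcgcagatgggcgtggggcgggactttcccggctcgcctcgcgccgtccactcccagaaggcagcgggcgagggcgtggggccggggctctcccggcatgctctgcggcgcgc
Prc1: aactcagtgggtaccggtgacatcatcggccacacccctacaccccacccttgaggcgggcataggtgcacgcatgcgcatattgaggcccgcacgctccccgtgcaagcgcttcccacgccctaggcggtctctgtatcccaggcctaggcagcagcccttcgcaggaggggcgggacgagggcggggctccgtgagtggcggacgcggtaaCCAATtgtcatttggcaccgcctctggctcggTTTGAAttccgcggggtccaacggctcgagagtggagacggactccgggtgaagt
Ube2c: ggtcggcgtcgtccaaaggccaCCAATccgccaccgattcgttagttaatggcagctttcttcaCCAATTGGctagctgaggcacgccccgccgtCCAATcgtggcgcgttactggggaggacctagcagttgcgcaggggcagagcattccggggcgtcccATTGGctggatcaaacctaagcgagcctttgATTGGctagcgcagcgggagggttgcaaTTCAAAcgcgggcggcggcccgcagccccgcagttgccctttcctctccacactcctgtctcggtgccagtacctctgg
Ccnb2: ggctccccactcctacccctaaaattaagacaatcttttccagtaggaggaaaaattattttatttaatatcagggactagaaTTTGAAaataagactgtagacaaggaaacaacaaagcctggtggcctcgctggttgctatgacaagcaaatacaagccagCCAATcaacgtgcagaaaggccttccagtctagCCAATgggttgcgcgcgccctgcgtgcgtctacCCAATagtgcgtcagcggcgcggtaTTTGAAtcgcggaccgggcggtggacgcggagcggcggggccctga

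Of 108 other genes of mitosis on a second list, 14 rose in 3A and 1 fell (13.0% and 0.926%), beside the 7.52% and 7.39% of all tested genes. All 108 were tested, and their median log2 fold change was 0.30. Without Control 1, edgeR called 56 higher (51.9%) and 12 lower (11.1%), against 26.2% and 25.8% of all tested genes. Leaving out another library instead gave 3 to 10 higher (2.78% to 9.26%) and at most 1 lower (0.926%). Of all tested genes, 2.46% to 4.54% were then higher and 2.26% to 4.64% lower. Shcbp1, encoding a partner of the centralspindlin complex at the midbody, had 32.7, 22.3 and 21.0 CPM in Control 1, 2 and 3, against 108, 130 and 141 CPM in 3A 1, 2 and 3. Ckap2, a microtubule-associated protein gene, had 53.3, 46.1 and 43.6 CPM in Control against 179, 186 and 192 CPM in 3A. The groups lay far apart for both, with log2 fold changes of 2.32 (SE 0.22, edgeR adjusted p = 0.00125) and 1.96 (SE 0.15, edgeR adjusted p = 0.000517). Both were called under each of the 19 alternatives. The other genes with the smallest p were Pimreg (1.04), the mitotic kinase genes Pbk (0.95) and Melk (1.03), the motor gene Kif18a (1.19) and the anaphase-promoting complex genes Cdc16 (1.06) and Cdc26 (1.13). By role, 6 of 24 motor and spindle genes rose, 3 of 18 anaphase genes, 2 of 9 checkpoint genes and 2 of 14 entry genes. Among kinetochore genes 1 of 26, Cenpc1, rose and Cenpt fell (log2 fold change -0.73), and none of the 11 condensin and cohesin genes was called by edgeR (2, Rad21 and Stag2, by DESeq2, and 7 by edgeR without Control 1, all higher). Cenpc1 and Cenpt lie outside the naming rule and were named after their values were seen.

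**Figure D4:**
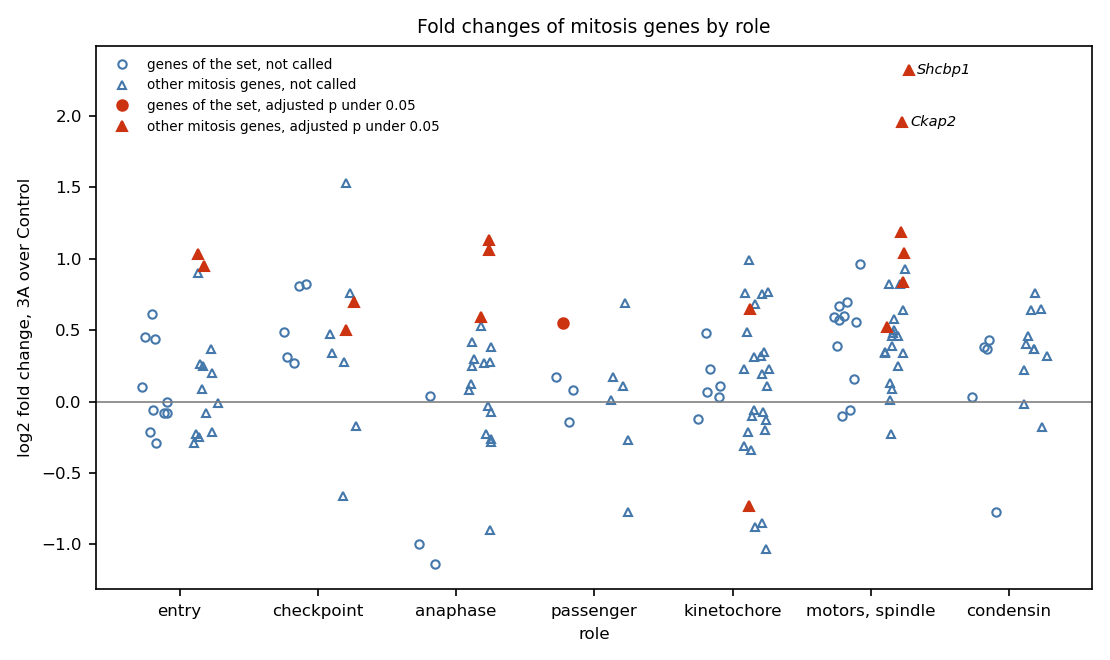
Log2 fold change of 3A over Control by role for the genes of the set (circles; the markers Mki67 and Top2a are left out) and for the 108 other mitosis genes (triangles), filled red where the edgeR adjusted p was under 0.05. Shcbp1 (2.32) and Ckap2 (1.96) stand above every other gene plotted.

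Shcbp1, Cdc16 and Ckap2 lie at 4735976 to 4779567, 13757676 to 13781938 and 22168160 to 22185819 on chromosome 8 (GRCm38). The 140 tested genes that start in the first 30 Mb of that chromosome, a window chosen after these values were seen, had a median log2 fold change of 0.57. Of them, 49 rose and 6 fell. The 620 tested genes on the rest of the chromosome had a median of -0.18. Relative to each gene's mean, the median level of the 140 genes was -0.28, -0.33 and -0.33 (log2) in Control 1, 2 and 3 and 0.28, 0.37 and 0.32 in 3A, so Control 1 lay with the other Control libraries here. The part of this regional difference in the values of Shcbp1, Cdc16 and Ckap2 was not tested. None of the 46 genes lies on chromosome 8. The tested genes within 2.5 Mb of Birc5 (98 genes) had a median log2 fold change of -0.08, and those around Prc1 and Ube2c medians of -0.04 and -0.08. Around the 46 genes such medians ran from -0.69 (Mad2l1) to 0.45 (Smc2), with a median of 0.04. The part of these regional differences in the values of the 46 genes was not tested.

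Among 20 tested genes for factors that act on these promoters, 0 rose by edgeR and 3 fell (15.0%), against 7.52% and 7.39% of all tested genes. At an unadjusted p under 0.05, 3 were higher by edgeR (15.0%, against 15.8% of all tested genes). DESeq2 called 3 higher (15.0%, against 12.2%). The genes that fell by edgeR were Rbl2, Tfdp2 and Lin37. Rbl2, encoding the pocket protein p130, which represses cell cycle genes in resting cells, had 38.0, 26.2 and 30.4 CPM in Control 1, 2 and 3, against 14.3, 18.4 and 19.1 CPM in 3A 1, 2 and 3 (log2 fold change -0.87, edgeR adjusted p = 0.0294). Tfdp2, an E2F partner gene, fell by 0.81 on the log2 scale from 23.7 ± 1.07 to 13.6 ± 1.49 CPM (SD, n = 3; edgeR adjusted p = 0.0147). Lin37, a MuvB subunit gene, had 9.48, 18.6 and 19.6 CPM in Control against 8.57, 6.05 and 6.82 CPM in 3A (log2 fold change -1.15, edgeR adjusted p = 0.0460), and Control 1 lay close to 3A. With the mitochondrial covariate its log2 fold change was -0.47 (edgeR adjusted p = 0.123). All 3 lost the call when any library other than Control 1 was left out (0 called). Of 53 S phase genes, 3 rose (5.66%) and 0 fell by edgeR, against 7.52% and 7.39% of all tested genes. At an unadjusted p under 0.05, 11 were higher (20.8%) and 0 lower by edgeR, against 15.8% and 18.1% of all tested genes. DESeq2 called 9 higher (17.0%) and 0 lower, against 12.2% and 13.8%. Without Control 1, 23 were called higher (43.4%) and 4 lower (7.55%), against 26.2% and 25.8% of all tested genes. The 3 were the ribonucleotide reductase genes Rrm2 (log2 fold change 1.00) and Rrm1 (0.62, and 0.40 with the mitochondrial covariate, edgeR adjusted p = 0.0595) and the origin recognition gene Orc1 (1.35). The summed S phase level was 4858 to 4988 CPM in Control against 5764 to 5915 CPM in 3A.

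Reads of some of the 46 genes may be shared with other genes, since the strand setting of the counting is not given. Exons of 12 of them overlap exons of a gene on the opposite strand, so reads of the pair cannot be told apart and these values are uncertain. They are Ccna2, Cdc20, Cdc25b, Cdc25c, Plk1, Kif20a, Kif4, Cdca8, Ube2c, Prc1, Nusap1 and Ncapg. The overlap is 1271 bases for Kif20a with Cdc23, 911 for Prc1 with Rccd1, 832 for Kif4 with Pdzd11 and 592 for Ube2c with Tnnc2. Over the 6 libraries the partners held 8853, 652, 11826 and 3 counts in that order. Birc5, Nuf2, Bub1b, Pttg1 and Smc4 have no such overlap. Ccnb1, Ccnb2 and Kif4 have named pseudogenes, which held 187, 8 and 0 counts.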

How the data were processed

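RNA-seq was done on 6 libraries, 3 per group. The authors deposited raw read counts per Ensembl gene, and no normalization is visible in them. Per the submitters' processing notes, they used Trim Galore, featureCounts, limma and edgeR, and mm10, GRCh38 and hg38 are named as builds, each without its role. The aligner, the annotation and strandedness were not given in the sources used here. Of 49315 IDs, 49056 matched GENCODE M21, and the 259 others held at most 0.0123% of a library's counts.

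Counts were filtered with filterByExpr, scaled by TMM and tested in R 4.3.3 with edgeR 4.0.16 (quasi-likelihood, Benjamini-Hochberg over 13704 genes, adjusted p under 0.05). CPM are TMM-scaled, and levels per kilobase use merged exons. Alternatives used DESeq2 1.42.0, limma 3.58.1 (voom) and mgcv 1.9.3 (offsets for GC content and length), among others. The typical relative spread between replicates was 0.264. On simulated counts for this comparison (13497 genes, 197 of them changed), the edgeR test recovered 81.2% of 4-fold and 16.7% of 2-fold changes, with 9 false calls among 107.

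The 46 genes and the other lists were chosen with earlier results of these data known. All 46 genes could be named. Library values were given for the called gene among the 46 and for the gene of smallest p in each role, and for others where the text describes them. From each other list, called genes were named if there were at most 8, otherwise the 8 with the smallest p. Promoters shown were those of called genes and of the gene with the smallest p without Control 1, with 2 added.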

Additional observations from a re-analysis of the deposited data

How the results depend on the processing

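Of the 46 genes, 20 changed the sign of their log2 fold change in at least 1 alternative and 26 in none, Birc5 among them. Genes called only in an alternative could turn elsewhere: Smc4 was 0.13 with a covariate for mitochondrial mRNA, and Cdc25b was 0.01 and Ndc80 -0.23 without Control 1. The median log2 fold change of the 46 genes stayed positive, at 0.12 to 0.27 when single libraries were left out, and was lowest, at 0.08 with 26 of the 46 positive, with offsets for GC content and for length. Leaving out 1 library gave 346 to 3751 genes higher (2.46% to 26.2%) and 318 to 3690 lower (2.26% to 25.8%) over all tested genes, and 0 to 18 higher and 0 to 3 lower among the 46. It gave 14 to 23 of the 46 without overlap on the higher side (30.4% to 50.0%) and 0 to 6 on the lower side (at most 13.0%). Of all tested genes, 19.4% to 36.8% and 18.7% to 36.3% were then without overlap, with the most without Control 1. Among the other mitosis genes it gave 3 to 56 higher and 0 to 12 lower, among the regulators 0 to 4 higher and 0 to 4 lower, and among the S phase genes 1 to 23 higher and 0 to 4 lower. The highest counts called came without Control 1, which is 1 library fewer yet gives more calls, and the cause was not tested.

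DESeq2 called 1678 genes higher and 1887 lower (12.2% and 13.8%), with 10 higher and 1 lower of the 46. It called 28 higher and 4 lower of the other mitosis genes, 3 and 3 of the regulators, and 9 and 0 of the S phase genes. The test against a 1.5-fold change called 417 higher and 419 lower (3.04% and 3.06% of all tested genes), with 0 of the 46. It called 2 higher and 0 lower of the other mitosis genes, 0 regulators, and 1 and 0 of the S phase genes. An adjusted p under 0.01 left 364 higher and 352 lower (2.66% and 2.57% of all tested genes), with 0 of the 46. It left 4 higher and 0 lower of the other mitosis genes, 0 regulators, and 1 and 0 of the S phase genes. Scaling by library size alone called 2 of the 46 higher and 0 lower, against 7.04% and 5.92% of all tested genes. It called 10 of the other mitosis genes higher and 0 lower, 0 and 2 of the regulators, and 1 and 0 of the S phase genes. Scaling by upper quartile called 3 of the 46 higher (6.52%) and left 1 without overlap on the lower side (2.17%), against 7.82% and 17.0% of all tested genes. With no low-count filter 0 of the 46 were called higher and 1 lower (Pttg1), against 3.95% and 4.22% of all genes then tested. With a covariate for the mitochondrial share of mRNA, 6 of the 46 were higher and 1 lower. Of the other mitosis genes 13 were then higher and 2 lower, of the regulators 0 and 2, and of the S phase genes 8 and 1. Of all tested genes 9.13% were then higher and 9.23% lower, and that fit leans on Control 1. When offsets corrected GC content and length, 2 of the 46 were higher and 1 lower. Of the other mitosis genes 16 were then higher and 3 lower, of the regulators 1 and 4, and of the S phase genes 5 and 1. Of all tested genes 9.81% were then higher and 10.6% lower. The cause of these changes was not tested.

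With the replicate number as a block, 142 genes were called higher (1.04%) and 146 lower (1.07%), with 0 of the 46 in either direction. Of the other mitosis genes 2 were higher and 0 lower, and 0 regulators and 0 S phase genes were called. Whether the numbers pair the samples is not known. Deviations from the group mean of same-numbered libraries correlated at -0.66, -0.419 and -0.375, and none correlated best with its own number. Control 1 and 3A 1 each stood apart in their group and dominate these deviations. The correlations therefore cannot show whether same-numbered samples were prepared together. In the simulation 16.7% of 2-fold changes were recovered, with 197 genes changed. The measured libraries gave 1031 genes higher and 1013 lower, which makes the adjusted threshold less strict, so that share need not hold for them. With 3 libraries per group, changes near 2-fold may still have been missed.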
